A study of Mus musculus with 31 samples.

Results

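This section follows Upp2, one of the mouse uridine phosphorylase genes, together with 8 further genes that reuse or break down pyrimidine nucleosides, in the liver and kidney of mice given bacterial lipopolysaccharide (LPS). The 9 genes are Upp1, Upp2, Uck1, Uck2, Tymp, Dpyd, Dpys, Upb1 and Nt5e, out of 16593 genes with a probe on the array. Every array probe annotated to one of these symbols was taken, which gave 21 probes for 8 of the genes, while Tymp had no annotated probe in the table used. Upp2 was selected on measured values: it had the largest fall of all genes in the liver when modIVIg was compared with vehicle and when modIVIg was compared with IVIg. Values of the members in those 2 liver comparisons are therefore given as a description, with no p-value. How many fell under the threshold is given beside the share of all features, and again for alternative fits. Nothing is read from these counts. The other comparisons did not enter the choice.

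The arrays were Illumina BeadChips, on which a biotin-labelled copy of the RNA binds to beads carrying 1 probe each and the brightness of the beads is read. All mice were C57BL/6J males between 20 and 30 weeks of age, and every group had received LPS, so no group shows these genes without endotoxin. The 3 groups were LPS with vehicle, LPS with IVIg (intravenous immunoglobulin, pooled antibody from donors) and LPS with modIVIg, a modified immunoglobulin whose modification the labels do not describe. Doses, the time of sampling and the number of animals behind each array are not given in the sources used here. Liver had 4 arrays in each group, and kidney had 4 for IVIg, 4 for modIVIg and 3 for vehicle. Nothing in the labels says whether the arrays of a group came from separate animals, so p-values measure the spread between these arrays. In homogenised tissue, fewer cells of a type and less RNA per cell cannot be told apart.

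Uridine and thymidine circulate in blood and are either salvaged or degraded, and the liver does much of both. Uridine phosphorylase splits uridine into uracil and ribose phosphate: Upp1 encodes the widely expressed, inducible enzyme and Upp2 a second one known chiefly from liver. Uridine-cytidine kinases (Uck1, Uck2) act in the opposite direction and phosphorylate the nucleosides so that they are kept as nucleotides. Uracil is then taken apart in a fixed order by dihydropyrimidine dehydrogenase (Dpyd, the rate-limiting step), dihydropyrimidinase (Dpys) and beta-ureidopropionase (Upb1), which releases beta-alanine. Tymp encodes thymidine phosphorylase. Nt5e encodes CD73, an enzyme of the cell surface that strips phosphate from nucleoside monophosphates and so supplies nucleosides to the outside of the cell.

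Because Upp2 and Upp1 share a reaction but differed in how they varied, the sequences in front of their transcription starts are shown. They come from RefSeq (build GRCm38.p6), read 5′ to 3′ on the plus strand, and each ends at the last base before an annotated start. RefSeq has 2 such windows for Upp2, at chr2:58567084-58567333 and chr2:58754934-58755183, and 3 overlapping or neighbouring ones for Upp1, of which the first, at chr11:9117758-9118007, is printed. Which start was in use in these samples is not known from the arrays. Capitals mark matches to the motifs named after the sequences.
Upp2 window 1: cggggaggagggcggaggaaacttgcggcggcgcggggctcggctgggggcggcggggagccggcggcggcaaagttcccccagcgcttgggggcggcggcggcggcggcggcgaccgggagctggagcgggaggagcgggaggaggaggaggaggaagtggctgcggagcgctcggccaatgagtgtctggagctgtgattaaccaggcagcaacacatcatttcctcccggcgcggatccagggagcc
Upp2 window 2: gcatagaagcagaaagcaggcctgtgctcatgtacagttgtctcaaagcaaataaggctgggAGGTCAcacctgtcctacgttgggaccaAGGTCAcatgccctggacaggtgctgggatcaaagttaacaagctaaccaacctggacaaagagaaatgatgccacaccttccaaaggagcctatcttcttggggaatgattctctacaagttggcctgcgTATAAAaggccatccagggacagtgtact
Upp1 window 1: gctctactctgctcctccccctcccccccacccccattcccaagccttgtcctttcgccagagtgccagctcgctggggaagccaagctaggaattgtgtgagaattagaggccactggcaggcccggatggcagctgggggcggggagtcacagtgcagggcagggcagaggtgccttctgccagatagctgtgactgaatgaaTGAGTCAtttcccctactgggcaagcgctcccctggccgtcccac

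The windows of Upp2 differ in base composition, with 73.2% G and C in the first and 49.2% in the second, against 62.4% in the Upp1 window. The second Upp2 window holds a TATA box (TATAAA) that begins 29 bases before the start, and 2 copies of the nuclear receptor half-site AGGTCA that begin 188 and 160 bases before it. The Upp1 window holds the AP-1 motif TGANTCA, 45 bases before the start. Both strands of the 250 bases before each of 32851 mouse starts in the table were searched: 12.4% held TATAAA, 14% held AGGTCA and 6.75% held TGANTCA. The other motifs searched had no match in any window of the 8 members that have one: the E-box CACGTG (6.02% of all windows), the D-box TTANGTAA (2.06%), the STAT motif TTCNNNGAA (7.02%), the NF-kB core GGGANTTTC (0.941%) and the interferon element GAAANNGAA (7.13%). A match is a description of letters and not a bound site.

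All values below are log2 bead signals after background correction and normalisation within each organ, so that 1 unit is a doubling. A probe was kept where the number of arrays with a detection p-value under 0.01 reached the size of the smallest group, and each gene was read from its brightest kept probe. In liver, 15 of the 21 probes were kept and covered 6 members, and all 15 were detected on all 12 arrays. In kidney, 17 were kept and covered 7 members. Dpys, the second step of uracil breakdown, was detected by its 1 probe on none of the 12 liver and none of the 11 kidney arrays. Nt5e was detected on 2 of 12 liver arrays, once with vehicle and once with IVIg, and on all kidney arrays. The arrays had the markers of their organs: 6 of 8 hepatocyte genes with a probe were detected on every liver array, 5 of 7 proximal tubule genes on every kidney array, and 6 of those 7 on no liver array. The hepatocyte genes separated the organs less, since 3 of the 8 were detected on every kidney array and 3 on none.

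In liver, Upp2 was lowest in the modIVIg group, where the lowest IVIg array stood above the highest modIVIg array. With vehicle the 4 arrays read 10.53, 12.54, 10.87 and 11.08. With IVIg they read 10.99, 11.38, 10.40 and 9.35. With modIVIg they read 7.31, 8.97, 8.09 and 7.97. The vehicle and IVIg arrays overlapped, and no modIVIg array reached either of those groups. The difference from vehicle was −3.17 ± 0.50 (standard error of the fit, 4 arrays per group), a level 9.02-fold lower, and the difference from IVIg was −2.45 ± 0.50, a level 5.46-fold lower. Both were the largest of 7155 features, which is how the gene was chosen.

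**Figure D1:**
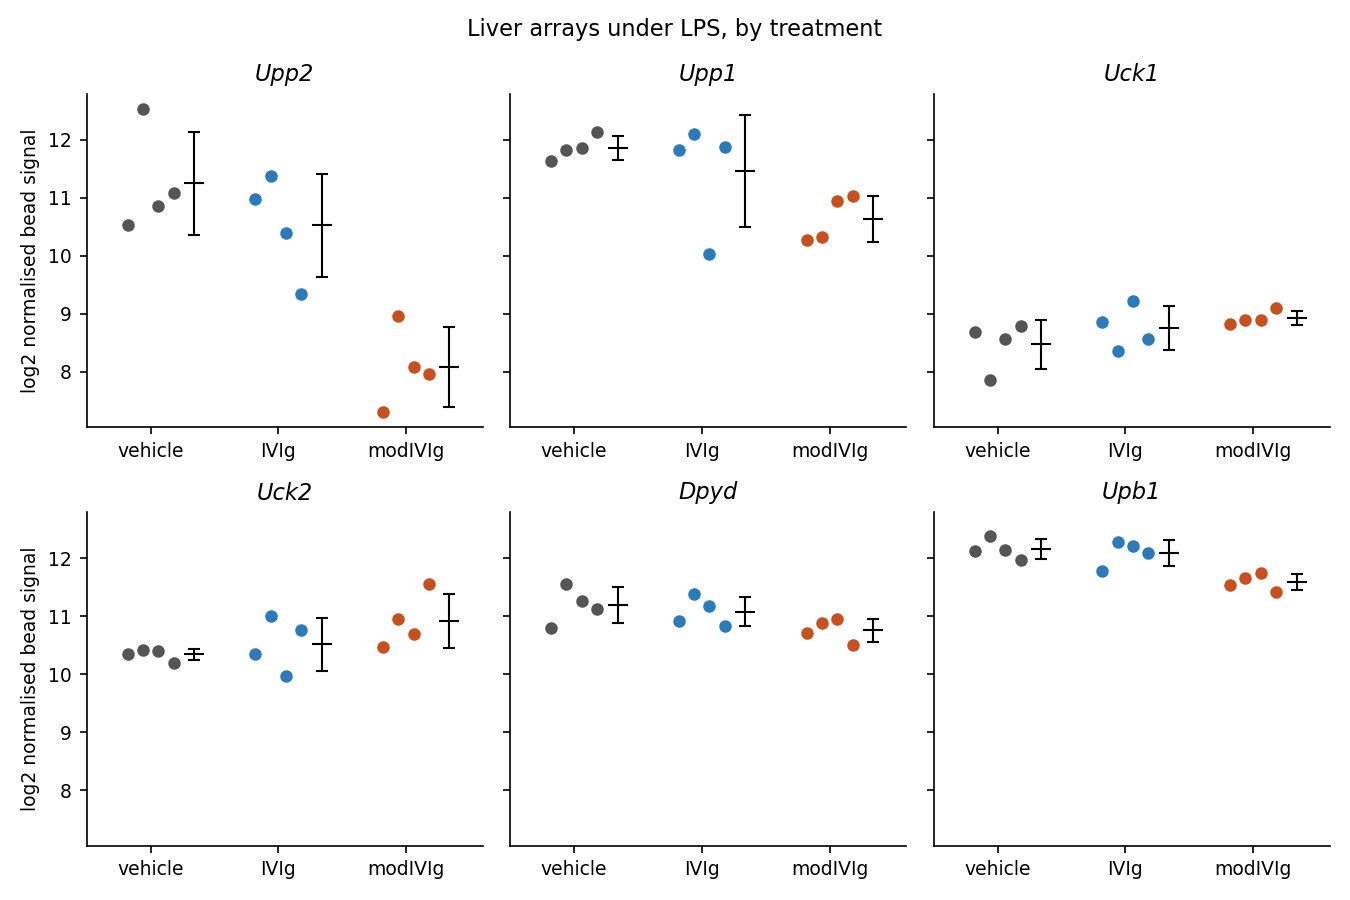
Log2 normalised bead signal of the 6 measured members on each liver array (points) under LPS with vehicle, IVIg or modIVIg, with the group mean and SD beside them, 4 arrays per group. The Upp2 arrays with modIVIg lie between 7.31 and 8.97, under all others, and the third IVIg array of Upp1 lies at 10.03, under the other 3 of its group.

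All 4 probes of Upp2 gave the same order of group means. Relative to vehicle the modIVIg difference was −2.49 ± 0.47, −2.98 ± 0.56, −2.84 ± 0.44 and −3.17 ± 0.50 by probe, and relative to IVIg it was −1.70, −2.21, −2.07 and −2.45. On the probe with −2.98 the modIVIg and IVIg arrays overlapped, with modIVIg replicate 2 at 8.03 and IVIg replicate 4 at 7.98. Each probe reads the same RNA on the same arrays, so the 4 are repeat readings and not replicates.

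Upp1, the other phosphorylase, was also lower with modIVIg, by less. With vehicle the arrays read 11.63, 11.83, 11.87 and 12.13, and with modIVIg they read 10.28, 10.32, 10.94 and 11.03, with no overlap. With IVIg 3 arrays read 11.83, 12.11 and 11.88, and the third-numbered array read 10.03, below every modIVIg array. The difference from vehicle was −1.23 ± 0.38, a level 2.34-fold lower. The difference from IVIg was −0.82 ± 0.38, and −1.31 when IVIg replicate 3 was left out. The other 2 Upp1 probes differed from vehicle by −1.33 ± 0.43 and −1.35 ± 0.39.

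**Figure D2:**
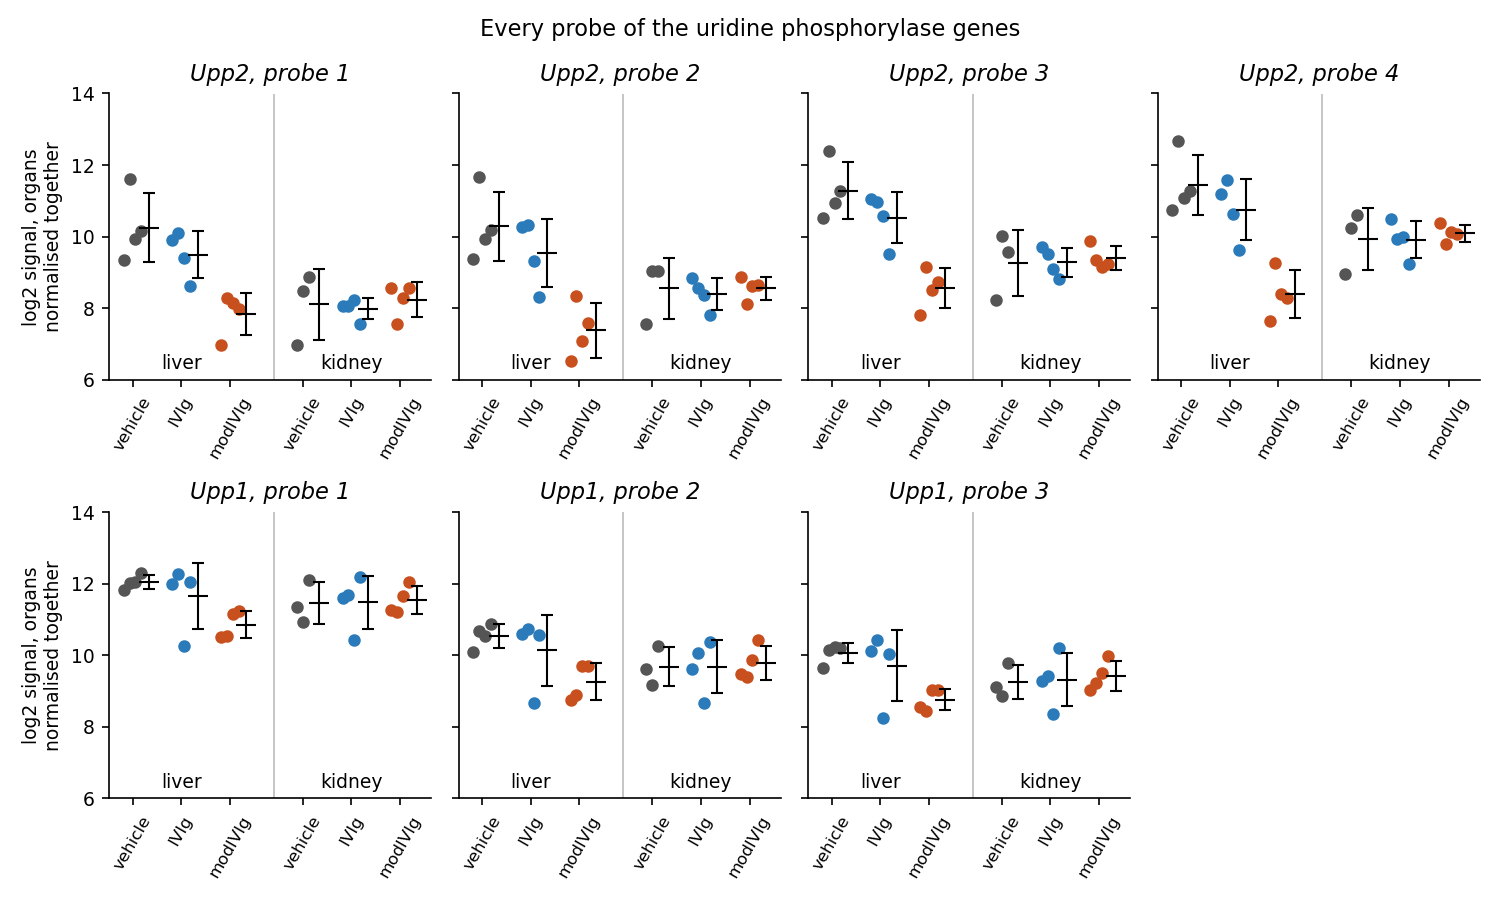
Log2 signal of each of the 4 Upp2 and 3 Upp1 probes on every liver array (left of the line) and kidney array (right of it), with both organs normalised together, by treatment (points), with group mean and SD. The mean of every Upp2 probe is lowest in liver with modIVIg, and the kidney groups of each probe overlap.

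The kinases that keep uridine as nucleotide read higher with modIVIg than with vehicle in liver, and the size rested on single arrays. Uck2 read 10.35, 10.42, 10.41 and 10.20 with vehicle and 10.48, 10.95, 10.70 and 11.56 with modIVIg, a difference of 0.58 ± 0.25. Uck1 read 8.69, 7.86, 8.57 and 8.80 with vehicle and 8.82, 8.89, 8.90 and 9.11 with modIVIg, a difference of 0.45 ± 0.22. The groups of both genes were separate by a narrow margin, with 10.42 under 10.48 for Uck2 and 8.80 under 8.82 for Uck1. IVIg arrays overlapped both groups for Uck2 and Uck1. The difference was 0.37 for Uck2 without modIVIg replicate 4 and 0.24 for Uck1 without vehicle replicate 2. The other 2 Uck2 probes differed by 0.38 ± 0.31 and 0.33 ± 0.25. On both of them the modIVIg and vehicle arrays overlapped. With modIVIg they read down to 8.30 and 7.10, and with vehicle up to 8.69 and 7.13.

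Both measured enzymes of uracil breakdown read lower with modIVIg. Upb1, which makes beta-alanine, read 12.13, 12.39, 12.14 and 11.97 with vehicle, 11.78, 12.28, 12.21 and 12.10 with IVIg, and 11.55, 11.67, 11.75 and 11.43 with modIVIg. No modIVIg array of Upb1 reached either other group, and the differences were −0.56 ± 0.14 from vehicle and −0.49 ± 0.14 from IVIg. The other 2 Upb1 probes differed from vehicle by −0.71 ± 0.13 and −0.65 ± 0.18. Dpyd, the rate-limiting step, read from 10.81 to 11.56 with vehicle and from 10.50 to 10.95 with modIVIg, with overlapping groups and a difference of −0.43 ± 0.18.

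Between modIVIg and vehicle, an adjusted p under 0.05 was met in the liver fit by 2 of the 6 members (1 of 5 without Upp2, whose place was fixed by the choice), both lower, beside 4.92% of all features (1.97% higher, 2.95% lower). The 1 other member is Upb1. Read from the brightest probes, the groups of 5 did not overlap, beside 19.8% of all features. Between modIVIg and IVIg the same held for 1 of 6 (0 of 5 without Upp2), beside 1.09% of all features (0.196% higher, 0.894% lower), and the groups of 2 did not overlap, beside 9.64%. These comparisons chose Upp2, so nothing is read from the counts. The median change of the 6 members, Upp2 included, was −0.49 against vehicle and −0.41 against IVIg, beside 0.04 and 0.05 over all features. Without Upp2 the middle change was that of Dpyd, −0.43 against vehicle and −0.32 against IVIg. Nothing is read from these medians either. Upb1 was under the threshold in 12 of 22 alternative fits, and over it when any one of vehicle replicates 1 to 4, modIVIg replicates 1 to 4 or IVIg replicate 4 was left out.

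IVIg itself was not distinguishable from vehicle for any member in liver. With limma and Benjamini-Hochberg adjustment 0 of 6 members passed, beside 0% of all 7155 features, and 0 of 6 had an unadjusted p under 0.05, beside 1.79% of features. The groups of 0 members were separate, beside 0.894%. Upp2 differed by −0.72 ± 0.50 (95% interval −1.81 to 0.36, adjusted p = 0.999 by limma), and Upp1 by −0.40 ± 0.38. The intervals of Uck1 (−0.20 to 0.75), Uck2 (−0.36 to 0.71), Dpyd (−0.50 to 0.28) and Upb1 (−0.37 to 0.24) all held 0. The Upp2 value rested on single arrays, being −0.29 without vehicle replicate 2 and −0.33 without IVIg replicate 4. For Upp1 the sign turned to 0.075 without IVIg replicate 3.

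**Figure D3:**
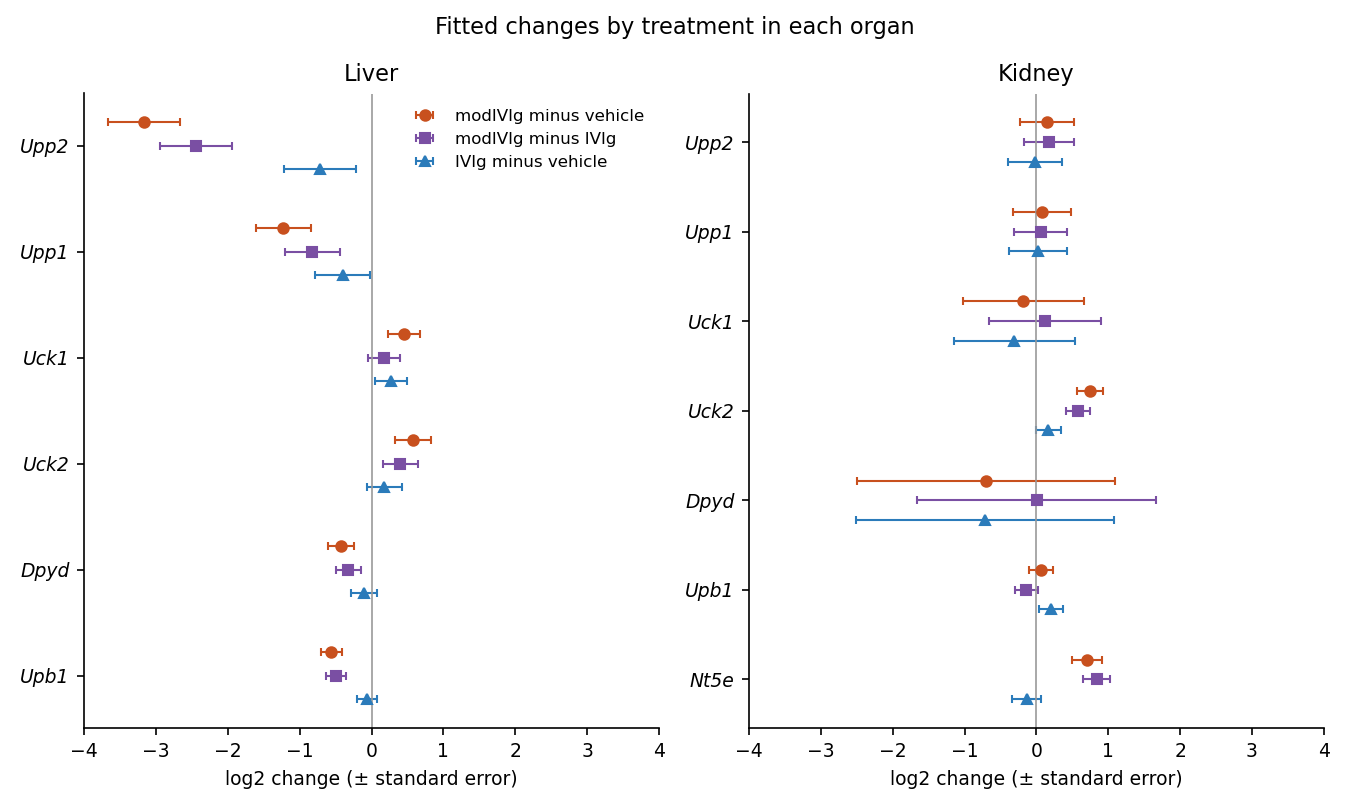
Fitted log2 change of each member with its standard error in 3 comparisons, for liver (left, 6 members) and kidney (right, 7 members). In liver Upp2 lies at −3.17 and −2.45 in the modIVIg comparisons. In kidney Upp2 and Upp1 lie near 0, Uck2 and Nt5e lie above 0 with modIVIg, and Dpyd has the widest errors.

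In kidney the 3 groups overlapped for both phosphorylases. Upp2 read 9.23, 10.47 and 10.82 with vehicle, 10.71, 10.18, 10.22 and 9.51 with IVIg, and 10.61, 10.04, 10.35 and 10.30 with modIVIg, all overlapping. Its difference between modIVIg and vehicle was 0.15 ± 0.38 (95% interval −0.68 to 0.98) and between modIVIg and IVIg 0.17 ± 0.35 (−0.60 to 0.94). Upp1 differed by 0.08 ± 0.40 and 0.06 ± 0.37, with intervals of −0.81 to 0.97 and −0.76 to 0.89. Upb1 differed by 0.07 ± 0.17 and −0.14 ± 0.16. Set directly against the liver in 1 fit, the modIVIg change of Upp2 relative to vehicle in liver minus that in kidney was −3.20 ± 0.67, a description because the liver change chose the gene, which was not among the 11 features that passed this test. For Upp1 the same difference missed the threshold, as given below.

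Uck2 and Nt5e were the kidney members with the clearest order of groups. Uck2 read 9.10, 8.92 and 9.09 with vehicle, 9.23, 9.24, 8.93 and 9.41 with IVIg, and 9.76, 9.62, 9.56 and 10.19 with modIVIg. Nt5e, the surface nucleotidase CD73, read 12.26, 11.67 and 12.32 with vehicle, 11.81, 11.74, 11.93 and 12.31 with IVIg, and 12.93, 12.59, 12.69 and 12.93 with modIVIg. On these brightest probes every modIVIg array of both genes was above every other array. Uck2 differed by 0.75 ± 0.18 from vehicle and 0.58 ± 0.17 from IVIg, and Nt5e by 0.71 ± 0.20 and 0.84 ± 0.19. Neither passed the test over all 8544 features: by limma the adjusted p was 0.997 for both genes against vehicle (unadjusted 0.0019 and 0.006) and 1.00 for both against IVIg (unadjusted 0.0058 and 0.0012). The second Nt5e probe differed by 0.49 ± 0.43 and 0.97 ± 0.40, and the second kept Uck2 probe by 0.71 ± 0.34 and 0.41 ± 0.32. On these second probes the modIVIg arrays overlapped both other groups. Nt5e read down to 9.82 with modIVIg, and up to 10.46 with vehicle and 10.02 with IVIg. Uck2 read down to 7.62 with modIVIg, and up to 7.91 with vehicle and 8.31 with IVIg.

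No feature of any kind passed in kidney. Limma called 0 of 7 members in modIVIg against vehicle, modIVIg against IVIg and IVIg against vehicle, beside 0% of features in each. At an unadjusted p under 0.05, 2 of 7 members, Uck2 and Nt5e, were below it in each modIVIg comparison and 0 of 7 in IVIg against vehicle, beside 2.65%, 3.8% and 1.36% of features. The groups of 2, 2 and 0 members did not overlap, beside 5.24%, 2.39% and 1.7%. The modIVIg changes of Uck2 in liver and kidney, 0.58 and 0.75, differed by −0.22 ± 0.32 in the joint fit (95% interval −0.88 to 0.44, adjusted p = 0.941 by limma).

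Dpyd and Uck1 split the kidney arrays by replicate number, not by treatment. Dpyd was detected on all 6 kidney arrays numbered 1 or 2, at 9.86 ± 0.11 (SD), and on 0 of the 5 numbered 3 or 4, at 5.27 ± 0.05, a level at least 10.4-fold lower. That fold is a lower bound, computed against the weakest signal detected on each of those arrays. Uck1 stood at 9.55 ± 0.08 on the first set and at 7.51 ± 0.51 on the second, again with no overlap. This split rests on 1 probe: a second kept Uck1 probe, detected on 3 of the 11 kidney arrays, all numbered 3 or 4, ran the other way, from 5.33 to 5.74 on the first set and from 6.07 to 7.03 on the second. The other 5 members did not separate the sets. Such a separation was common: of 8544 features, 1178 stood wholly higher on the first set and 1618 wholly lower. Nothing is therefore read from the number of members that separated. Across the kidney, 384 of 8544 features (4.49%) were detected on every array of the first set and on none of the second, and 0 the other way round, so Dpyd was 1 of many.

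Of the 182 genes that had such a lost probe and a second probe detected on the whole first set, 6 had every such probe lost, and in liver the same pattern by number was met by 2 probes. Dpyd has 1 probe, so this could not be checked for it. The remaining 2 Uck1 probes were detected on 2 and 1 of the 11 kidney arrays. What the numbers stand for is not given in the labels, and whether batch accounts for the split was not tested. Among replicates 1 and 2, where Dpyd was detected, modIVIg minus vehicle was 0.07 and IVIg minus vehicle 0.03, against −0.71 for each over all arrays (standard error 1.80). Among replicates 3 and 4 Dpyd was not detected, so treatments could not be compared there. Uck1 gave 0.08 and 0.29 within the sets against −0.19 ± 0.84 over all arrays. For IVIg minus vehicle Uck1 gave −0.07 and 0.19 within the sets, against −0.31. The vehicle group has 1 array in the second set, so no test was made within it.

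**Figure D4:**
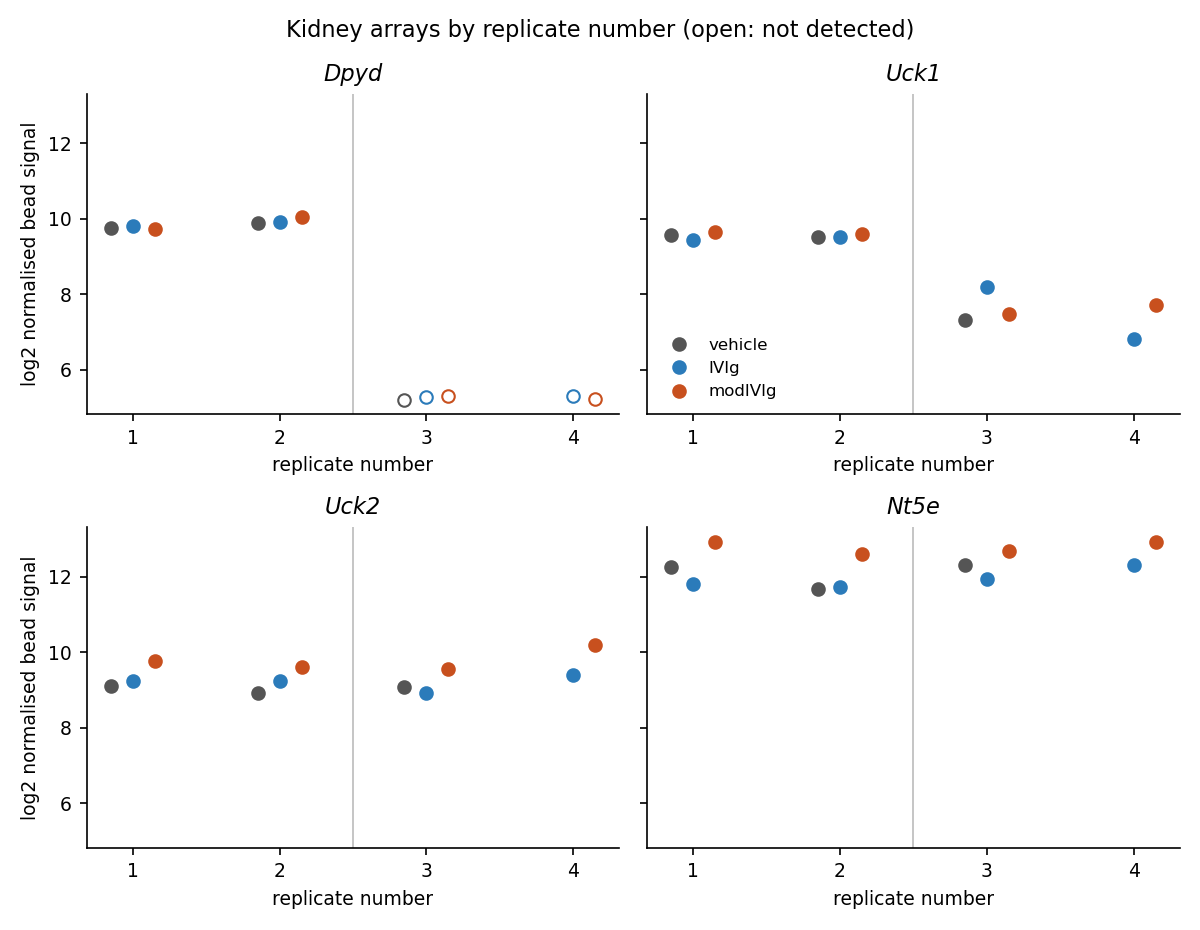
Log2 normalised bead signal of Dpyd, Uck1, Uck2 and Nt5e on each kidney array by replicate number, coloured by treatment, with open points where the probe was not detected. Dpyd falls from about 9.86 to about 5.27 between replicates 2 and 3 in all treatments, while the modIVIg points of Uck2 and Nt5e are highest at every number.

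Uck2 and Nt5e kept their order within both sets of kidney arrays. Uck2 was higher with modIVIg than with vehicle by 0.68 and 0.79 in the first and second set, and than with IVIg by 0.45 and 0.70. Nt5e was higher by 0.80 and 0.49 than with vehicle and by 0.99 and 0.69 than with IVIg. With the set as a block the adjusted p by limma was 0.582 for both genes against vehicle, and 0.400 for Uck2 and 0.358 for Nt5e against IVIg.

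The organs were separated by far more features than the treatments were (56.7% with vehicle, 58.6% with IVIg, 57.7% with modIVIg at an adjusted p under 0.05). For this comparison both organs were normalised together, which leaves 9094 features. With vehicle, limma called 5 of 7 members: Upp2, Uck2, Dpyd and Upb1 higher in liver and Nt5e higher in kidney, and 4 of 6 without Upp2, whose liver vehicle arrays entered its choice. With IVIg 4 of 7 were called (Uck2, Dpyd, Upb1 and Nt5e), and with modIVIg 4 of 7, or 3 of 6 without Upp2 (Uck2, Dpyd and Nt5e). These counts are near the share of all features.

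Uck2 was higher in liver by 1.82 ± 0.23 with vehicle, 1.81 ± 0.22 with IVIg and 1.60 ± 0.22 with modIVIg (adjusted p = 1.06e-06 with vehicle by limma). Upb1 was higher in liver by 0.79 ± 0.16 with vehicle and 0.51 ± 0.15 with IVIg, and differed by 0.19 ± 0.15 with modIVIg (95% interval −0.12 to 0.49), a value that includes the liver arrays used in the choice. Nt5e was detected on 1 of 4 liver arrays with vehicle and 1 of 4 with IVIg, so the size of its organ difference there is not given. With modIVIg no liver array detected Nt5e, and the kidney level was at least 68.5-fold higher. Upp1 differed by 0.58 ± 0.43 with vehicle and did not pass (95% interval −0.30 to 1.47, adjusted p = 0.251 by limma). It was 0.32 without kidney vehicle replicate 2 and 0.90 without kidney vehicle replicate 3. On arrays numbered 1 and 2 alone it was 0.77 and passed (adjusted p = 0.0050 by limma), and on those numbered 3 and 4 it was 0.0821.

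Dpyd was 3.28 ± 1.24 higher in liver with vehicle (adjusted p = 0.0296 by limma), and the split of the kidney arrays carried into this value. Computed only on arrays numbered 1 and 2, a comparison added after the data were seen, it was 1.80 and passed (adjusted p = 0.00017 by limma). On those numbered 3 and 4, where the kidney array did not detect Dpyd, the liver level was at least 39.7-fold higher. The value over all arrays thus averages detected and undetected kidney arrays. Without kidney vehicle replicate 3 it was 1.81 and no longer passed (adjusted p = 0.236 by limma). It also missed the threshold without liver vehicle replicate 2 (3.15, adjusted p = 0.0579) or 3 (3.25, 0.0517), and without the detection filter (0.0560). With the replicate block it was 3.61 and passed (adjusted p = 0.0043 by limma). Uck1 changed sign with the set, at −0.69 on arrays 1 and 2 and 1.96 on arrays 3 and 4, against 0.26 ± 0.63 over all. The first of these values passed (adjusted p = 0.038 by limma), and the second has 1 kidney array, so its size alone is given.

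The level of Upp2, from highest to lowest, ran from liver with vehicle (11.44 ± 0.84, SD) through liver with IVIg (10.75 ± 0.85), kidney with modIVIg (10.10 ± 0.24), kidney with vehicle (9.94 ± 0.87) and kidney with IVIg (9.92 ± 0.51) to liver with modIVIg (8.40 ± 0.66). Each neighbouring pair in that order overlapped. The organ difference was 1.50 ± 0.49 with vehicle, 0.84 ± 0.46 with IVIg and −1.70 ± 0.46 with modIVIg, so that the gene was higher in liver with vehicle and higher in kidney with modIVIg. Since the liver arrays chose the gene, these are a description. They are also values of the brightest probe. On each other Upp2 probe the liver and kidney arrays with modIVIg overlapped. The closest of these probes read from 6.98 to 8.29 in liver and from 7.55 to 8.57 in kidney. The vehicle value was 1.09 without liver vehicle replicate 2, 1.02 without kidney vehicle replicate 1, 2.11 on arrays numbered 1 and 2, and 0.57 on those numbered 3 and 4.

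**Figure D5:**
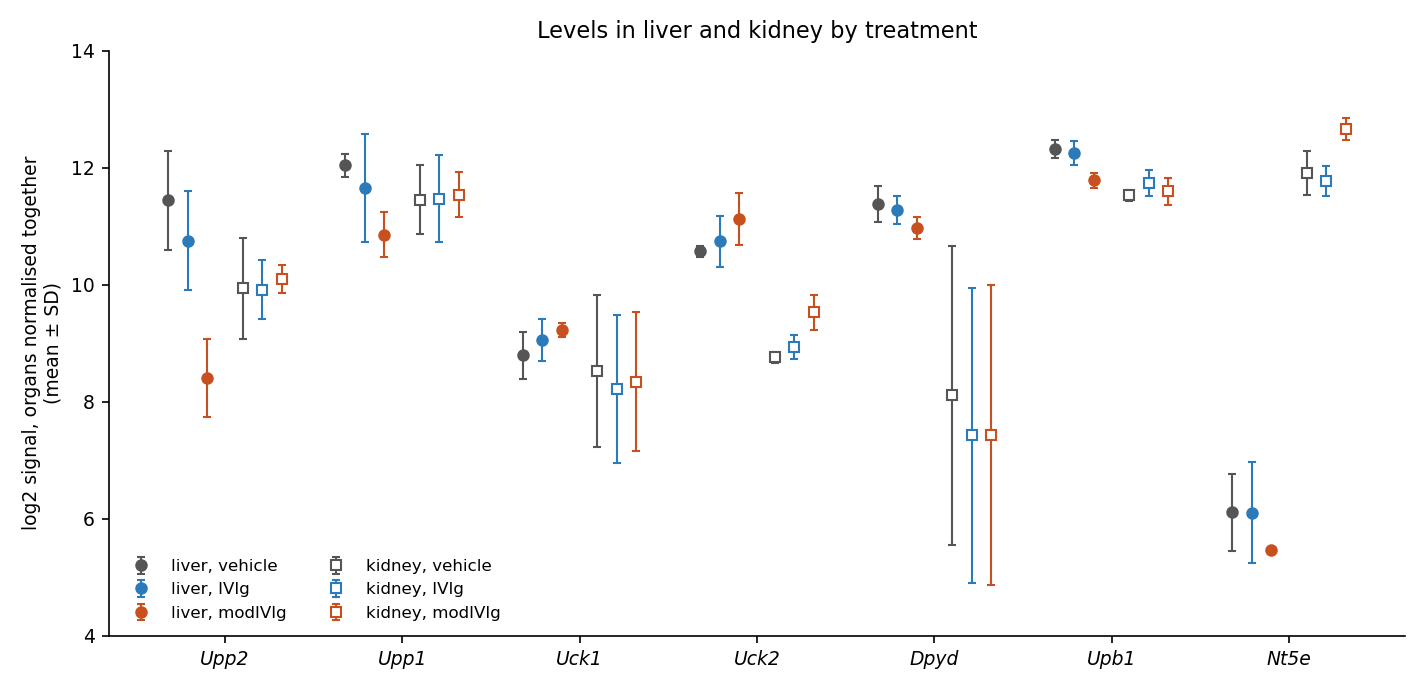
Mean and SD of the log2 signal of 7 members in liver (filled circles) and kidney (open squares) by treatment, both organs normalised together, with 4 arrays per group and 3 for kidney with vehicle. The mean of Upp2 in liver with modIVIg (8.40, brightest probe) lies under the mean of every kidney group. Nt5e is near background in liver, and Dpyd and Uck1 have wide SDs in kidney.

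In the same order from highest to lowest, Upp1 ran from liver with vehicle (12.04) through liver with IVIg (11.65) and the 3 kidney groups (11.54 with modIVIg, 11.47 with IVIg, 11.46 with vehicle) to liver with modIVIg (10.86), each overlapping the next. Uck1 ran from liver with modIVIg (9.23) to kidney with IVIg (8.22), again with each pair overlapping. Uck2 was highest in the 3 liver groups (11.13 with modIVIg, 10.74 with IVIg, 10.58 with vehicle), which overlapped, followed after a gap by kidney with modIVIg (9.53) and, after another, by kidney with IVIg (8.93) and with vehicle (8.75). For Upb1 liver with vehicle (12.31) and IVIg (12.25) stood apart from liver with modIVIg (11.78), which overlapped kidney with IVIg (11.74) and was followed by the other kidney groups (11.60 with modIVIg, 11.53 with vehicle). Dpyd had its 3 liver groups (10.97 to 11.39) above all kidney groups (7.42 to 8.11), and Nt5e had kidney with modIVIg (12.66) above the other kidney groups (11.91 and 11.77) and all of these above liver, where it was near background (5.46 to 6.11).

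For members other than Upp2, no treatment change passed the test of a difference between the organs. Limma called 0 of 6 in each of modIVIg against vehicle, modIVIg against IVIg and IVIg against vehicle, beside 0.121%, 0.033% and 0% of features. In the first of these the change in liver minus that in kidney was −0.60 ± 0.21 for Upb1 (adjusted p = 0.433 by limma) and −1.27 ± 0.58 for Upp1 (0.630), both including the liver arrays of the choice. For Dpyd and Uck1 this test says little, since the 95% intervals were wide, at −3.27 to 3.79 and −1.17 to 2.42. Nt5e is among the 6, but no value is given for it, since most liver arrays did not detect it.

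Neighbouring steps of nucleotide metabolism were followed in 8 lists of 71 genes. In liver 36 were measured, and 4 (11.1%) passed between modIVIg and vehicle, all lower, beside 4.92% of all features (2.95% lower). The lists were put together with earlier results known, so nothing is read from this share. Cmpk2, a mitochondrial kinase of pyrimidine monophosphates that interferon induces, fell by 2.68 ± 0.52 (adjusted p = 0.0187 by limma). Nt5c3, a cytosolic nucleotidase for pyrimidine monophosphates, fell by 1.67 ± 0.42 (0.0427). Ugp2, which makes UDP-glucose from UTP, fell by 0.71 ± 0.19 (0.0471), and Nme3, a nucleoside diphosphate kinase, by 0.51 ± 0.13 (0.0441). The count was 0 without vehicle replicate 2 or modIVIg replicate 1, and 1 without vehicle replicates 1, 3 or 4, IVIg replicates 1 or 4, or modIVIg replicates 2, 3 or 4. Cmpk2 itself passed in 20 of 22 alternative fits, and Nt5c3, Ugp2 and Nme3 each in 11 of 22.

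By median change between modIVIg and vehicle in liver, the lists ran from −0.42 for beta-alanine metabolism, where 4 of 4 measured genes read lower and none passed, to 0.26 for the other salvage and thymidylate enzymes, beside 0.04 over all features. In lists with no call the gene with the largest difference was Abat for beta-alanine metabolism (−0.43 ± 0.19), Tk2 (mitochondrial thymidine kinase) for salvage (0.62 ± 0.21), Ampd2 for purine salvage and breakdown (0.59 ± 0.27), Slc29a1 (a nucleoside transporter) for transport (−0.40 ± 0.49) and Ctps (CTP synthase) for de novo synthesis (0.28 ± 0.16). Purine breakdown genes as a list had a median of 0.00, with 0 of 9 called. Between modIVIg and IVIg and between IVIg and vehicle 0 of 36 list genes passed, and in kidney 0 of 44 in all 3 comparisons. In kidney Cmpk2 differed between modIVIg and vehicle by −0.68 ± 0.18 (unadjusted p = 0.0033, adjusted 0.997 by limma).

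Markers of other cell types moved in liver as well, and their part in the member values was not tested. Of the Kupffer cell markers 4 of 5 measured were called lower with modIVIg than with vehicle, beside 2.95% of all features. Of these, Clec4f was detected on 12 of the 12 liver arrays, Vsig4 on 8, C1qa on 5 and Timd4 on 4, so the last 3 are at background on part of the arrays and could pass the filter through the groups where they are higher. The remaining measured marker, Marco, was detected on 12 of the 12 liver arrays and did not read lower. The list had a summed signal of 552 to 1492 against 883 to 1835, and Cd5l and Cd163 were detected on no liver array. Of the sinusoidal endothelial markers 1 of 5 was called lower (1324 to 2344 against 2244 to 3478). Of the hepatocyte markers 0 of 8 passed, with a median change of −0.03 and sums of 191687 to 204211 against 202697 to 214588. Of the neutrophil markers 0 of 5 passed (4587 to 11045 against 5091 to 6868), with Mmp8 not detected.

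Pairwise correlations of the members among the 12 liver arrays are given as a description over arrays that share treatments. Upp2 correlated with Upb1 at r = 0.83 and with Dpyd at 0.82, and Dpyd with Upb1 at 0.83. After the 3 treatment means were removed the Upp2 values were 0.34 with Upb1 and 0.72 with Dpyd, and Dpyd with Upb1 kept 0.72. Upp2 and Upp1 correlated at 0.64 over all arrays and at 0.10 within treatments. Upp1 correlated with Uck2 at −0.01 over all arrays and 0.68 within treatments. Uck1 ran against Upp2, Dpyd and Upb1, at −0.61, −0.66 and −0.63 over all arrays and −0.46, −0.53 and −0.54 within treatments.

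Over the same 12 arrays and 7155 features, the genes most like Upp2 were Slc2a2 (the hepatocyte glucose transporter GLUT2, r = 0.98 and 0.91 within treatments), Oasl1 (0.97 and 0.87), Thnsl2 (0.96 and 0.84), Endod1 (0.96 and 0.83) and Cps1 (the first enzyme of the urea cycle, 0.96 and 0.93). Slc2a2 differed between modIVIg and vehicle by −2.38 and Cps1 by −0.53, against −3.17 for Upp2. The genes most like Upp1 were others: Rgs1 (0.95 and 0.96), Ppp1r15b (0.95 and 0.91), Oas1c (0.93 and 0.92), Ift81 (0.93 and 0.88) and Ube2f (0.93 and 0.88). The 2 sets of 5 share no gene, and all 10 were picked as the highest of the whole table.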

How the data were processed

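Bead intensity and a detection p-value per probe and array were deposited by the authors without normalisation, per the file headers; a second deposited table holds the authors' log2 values, used as an alternative. Per the submitters' processing notes GenomeStudio 1.9.0, lumi and limma were used. Of 25697 probes 23978 carried 1 gene symbol. Organ by organ, neqc (limma 3.58.1 in R 4.3.3, offset 16) removed background and equalised the arrays' quantiles. Probes were filtered on detection p under 0.01, reduced to the brightest kept probe per gene, and fitted with lmFit and eBayes over 3 groups, with Benjamini-Hochberg adjustment at 0.05 over all features. Organs were compared in a joint fit of 6 groups. The scripts were tested on simulated data. The number of arrays limits the precision. Between 31.6% and 35.3% of probes were detected on liver arrays and 34.8% to 41.2% on kidney arrays.

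Replicate numbers paired the kidney arrays: all 10 same-numbered pairs deviated together (r 0.587 to 0.849), a pattern of the data, since the labels give no meaning to the numbers. The members and lists were chosen with earlier results of these data known. All probes of the 9 members are named. Of the lists, genes with an adjusted p under 0.05 in any treatment comparison are named, else the gene with the largest difference in liver between modIVIg and vehicle. The 5 genes most correlated with Upp2 and with Upp1 are also named. Alternatives covered background, filter, probe choice, weights, blocks and each array left out.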

Additional observations from a re-analysis of the deposited data

Results flagged for a closer look

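Upp1 in the liver IVIg group had 1 array far from the others: replicate 3 read 10.03 on the log2 scale, against 11.83 to 12.11 for the other 3. All 3 Upp1 probes were lowest on that array within the group. Upb1 in the kidney modIVIg group had replicate 3 at 12.11, against 11.63 to 11.70 for the other 3. Of 32 groups of 4 arrays examined, chance alone would set apart about 1 in 20. In the white blood cell arrays, which no comparison above uses, Upp1 was detected on 7 of 7 usable arrays, with bead signals of 812.3 to 2750.9. On the same arrays Upp2 was detected on 0 of 7 and Uck2 on 3 of 7.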

How the results depend on the processing

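Of 1331 recomputed values 1184 were counted as unchanged, 52 as no longer passing, 8 as newly passing, 55 as moved counts or untested values and 32 as turned in sign. The first number includes some values that did move. Within kidney replicates 1 and 2, modIVIg minus vehicle was 0.0663 for Dpyd and 0.0823 for Uck1, against −0.71 and −0.19 over all arrays. Members called between organs with vehicle, 5 over all arrays and 7 on arrays numbered 1 and 2, were also counted as unchanged. Upp2 in liver kept its sign in 22 of 22 alternatives, from −3.47 to −2.70 against vehicle and from −2.84 to −2.03 against IVIg.

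Between modIVIg and vehicle in liver 352 features passed. The count was 187 without the detection filter, 1112 with array weights, 540 with the replicate block, 821 with only the 2 groups compared, and 82 (without vehicle replicate 2) to 820 (without IVIg replicate 3) with 1 array left out. Members other than Upp2 numbered 1, and 0 without the filter, 3 with weights, 2 with only the 2 groups, and 0 to 2 with 1 array left out. Pathway list genes numbered 4, and 1 without the filter and 0 to 5 with 1 array left out. Between modIVIg and IVIg 78 passed, and 16 without the filter, 230 with weights, 123 with an intensity trend, 180 with the block, 19 with only the 2 groups, and 10 (without IVIg replicate 1) to 359 (without IVIg replicate 3) with 1 array left out. Other members numbered 0, and 1 with weights or without IVIg replicate 3. Members called between organs with vehicle numbered 5 over all arrays, 3 to 5 with 1 array left out, 7 on arrays numbered 1 and 2 and 5 on those numbered 3 and 4. In these counts the cause was not tested.

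The signs of small kidney changes turned. For Dpyd, undetected on 5 of 11 arrays, modIVIg minus vehicle was 0.0617 with the replicate block, 0.0597 with the set as a block, and −2.24 to 0.0942 with 1 array left out. IVIg minus vehicle was 0.17 with weights, 0.0548 and 0.0528 with these blocks, and −2.25 to 0.0871. For Uck1, modIVIg minus vehicle was 0.0593 with the mean of the probes, 0.24 with the replicate block, 0.16 with the set as a block, and −0.93 to 0.21. In the same order IVIg minus vehicle was 0.0489, 0.12 and 0.032, and −1.05 to 0.24. Uck1 between organs was −0.69 on arrays numbered 1 and 2, and −0.49 to 0.66 with 1 array left out. In liver IVIg minus vehicle ran from −0.62 to 0.075 for Upp1, −0.24 to 0.0143 for Dpyd and −0.13 to 0.0399 for Upb1 with 1 array left out.

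In liver, same-numbered arrays deviated together less regularly than in kidney: 6 of 12 pairs correlated above 0.1, with r from −0.130 to 0.521 over all 12. All pairs of replicate 2 lay between 0.265 and 0.521. In kidney the replicate block changed no call. Genes near background, such as Nt5e in liver, Dpyd on kidney arrays numbered 3 and 4, and Dpys, have only upper bounds on their level.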
